A study of Mus musculus with 18 samples.

Results

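The Wnt genes described here were 10 of the 46078 genes in the count table, taken by matching Ensembl mouse gene identifiers to their symbols. They comprised 2 ligands (Wnt3 and Wnt9a), 3 transcription factors of the TCF/LEF family (Lef1, Tcf7 and Tcf7l1) and 5 target genes (Axin2, Sp5, Nkd1, Cdx1 and T). The cells were E14 mouse embryonic stem cells (mESCs), a wild-type line of the 129 strain, cultured for 24 h in serum with LIF on fibronectin-coated StemBond hydrogels. These are polyacrylamide gels in which the co-monomer AHA tethers the extracellular matrix. Their stiffness was about 750 Pa (soft) or about 160 kPa (stiff), and each stiffness was made with 16, 48 or 80 mM AHA for low, mid and high tethering. All 6 groups shared the cell line, the medium, the fibronectin and the culture time, and each had 3 libraries. All cells came from a single line, and no source said whether the libraries of a group came from separate cultures, so p-values measure the spread between libraries, which may be technical.

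Wnt ligands bind Frizzled and LRP receptors at the cell surface, which prevents the destruction complex of Axin, APC and the kinase GSK3 from degrading β-catenin. Stabilised β-catenin then joins TCF/LEF factors on DNA, where Tcf7l1 acts mainly as a repressor and Tcf7 and Lef1 mainly as activators. In mESCs the pathway is known for supporting self-renewal, and at gastrulation the same pathway drives T (brachyury) and the formation of the primitive streak.

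Total gene counts per library ranged from 5850621 to 9290261, of which 68.4 to 72.7% fell in protein-coding genes. In replicate 1 of the soft, 80 mM AHA group the ERCC spike-in RNAs took 1.37% of counts, against 0.607 to 0.725% in the other libraries. That library was left out of the fit, which left 8 soft and 9 stiff libraries. Stem cell markers were abundant in all of these libraries: Pou5f1, the core pluripotency factor, averaged 552 CPM on soft gels and 540 CPM on stiff gels. CPM stands for counts relative to the TMM-adjusted library total, which was summed over tested protein-coding genes. All 10 Wnt genes are protein-coding, and 9 of them passed the filter on low counts and entered the test of 13443 genes. Cdx1 did not pass it.

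TCF/LEF factors recognise a short core sequence, so the promoters of the genes were read for it. The 7-base cores CTTTGAT and CTTTGAA were searched on both strands in the 250 bases upstream of each RefSeq transcript start (assembly GRCm38.p6), and the table held windows for 9 of the 10 genes. The 2 cores differ in their last base and cannot share a position. Only the windows of Sp5 and T held a core: CTTTGAT on the gene's strand 104 bases upstream of the Sp5 start, and CTTTGAA on the opposite strand 235 bases upstream of the T start. Of all 32851 windows in the table, 7.48% held either core. The windows of Sp5 (chr2:70474673-70474922, plus strand) and T (chr17:8434173-8434422, plus strand) are shown with the core in capitals. They are followed by those of the 4 genes that differed between soft and stiff gels, Wnt3 (chr11:103773925-103774174, plus strand), Lef1 (chr3:131110047-131110296, plus strand), Axin2 (chr11:108920099-108920348, plus strand) and Tcf7l1 (chr6:72789046-72789295, minus strand), which held neither core.
Sp5: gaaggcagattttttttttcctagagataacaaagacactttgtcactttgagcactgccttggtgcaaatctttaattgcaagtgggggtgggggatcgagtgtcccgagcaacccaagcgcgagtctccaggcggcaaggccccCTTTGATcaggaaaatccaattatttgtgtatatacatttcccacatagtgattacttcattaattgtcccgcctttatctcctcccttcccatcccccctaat
T: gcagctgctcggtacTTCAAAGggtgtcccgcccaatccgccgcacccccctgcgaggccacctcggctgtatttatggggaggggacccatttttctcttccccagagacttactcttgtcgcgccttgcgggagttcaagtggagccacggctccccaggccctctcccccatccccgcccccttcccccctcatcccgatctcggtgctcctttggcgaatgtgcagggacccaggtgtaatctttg
Wnt3: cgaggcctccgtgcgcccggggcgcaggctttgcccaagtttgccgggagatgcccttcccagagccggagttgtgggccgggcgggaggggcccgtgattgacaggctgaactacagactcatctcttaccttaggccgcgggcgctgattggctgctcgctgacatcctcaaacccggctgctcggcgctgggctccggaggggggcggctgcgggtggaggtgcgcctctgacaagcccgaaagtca
Lef1: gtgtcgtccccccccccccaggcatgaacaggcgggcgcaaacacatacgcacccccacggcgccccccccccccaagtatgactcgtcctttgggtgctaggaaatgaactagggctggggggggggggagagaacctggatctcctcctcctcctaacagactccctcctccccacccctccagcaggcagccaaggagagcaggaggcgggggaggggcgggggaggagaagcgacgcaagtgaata
Axin2: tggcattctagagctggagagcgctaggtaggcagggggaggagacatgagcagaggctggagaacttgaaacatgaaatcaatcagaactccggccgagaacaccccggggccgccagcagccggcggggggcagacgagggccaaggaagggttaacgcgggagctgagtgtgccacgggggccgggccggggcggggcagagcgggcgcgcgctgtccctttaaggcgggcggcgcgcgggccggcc
Tcf7l1: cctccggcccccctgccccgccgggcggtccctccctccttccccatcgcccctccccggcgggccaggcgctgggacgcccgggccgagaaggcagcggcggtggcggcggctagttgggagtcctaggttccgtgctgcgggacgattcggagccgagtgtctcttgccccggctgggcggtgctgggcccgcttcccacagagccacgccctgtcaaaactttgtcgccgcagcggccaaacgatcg
A match is a description of these letters and not of binding, and cores farther away, in introns or in distal elements, were not searched. Lef1 had 4 windows and Tcf7 had 2, and none of these held either of the 2 cores. Other spellings of the core sequence were not searched, so letters left in lower case may still hold one.

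Expression per length set Tcf7l1 and Tcf7 apart from the other genes. Counts were divided by the length of all annotated exons of a gene, which gives CPM per kb, averaged here over the 17 libraries fitted. Tcf7l1 was highest at 67.3 ± 4.35 CPM per kb (SD, n = 17), followed by Tcf7 at 41.4 ± 2.74. Neither overlapped its neighbour in any library, since Tcf7l1 did not go below 60.3 CPM per kb and Tcf7 did not exceed 46.9. Axin2 came next at 8.67 ± 1.16 CPM per kb, then Sp5 at 6.97 ± 1.28, Wnt3 at 5.19 ± 1.06, T at 4.97 ± 1.14 and Wnt9a at 3.77 ± 0.621. In this middle stretch each neighbouring pair overlapped over the libraries. Lef1 stood at 2.68 ± 0.410 CPM per kb and also overlapped Wnt9a. Nkd1 at 1.17 ± 0.319 and Cdx1 at 0.507 ± 0.304 CPM per kb were lowest. The exon length counts all annotated isoforms, so a gene that uses a short isoform is placed too low in this order.

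**Figure D1:**
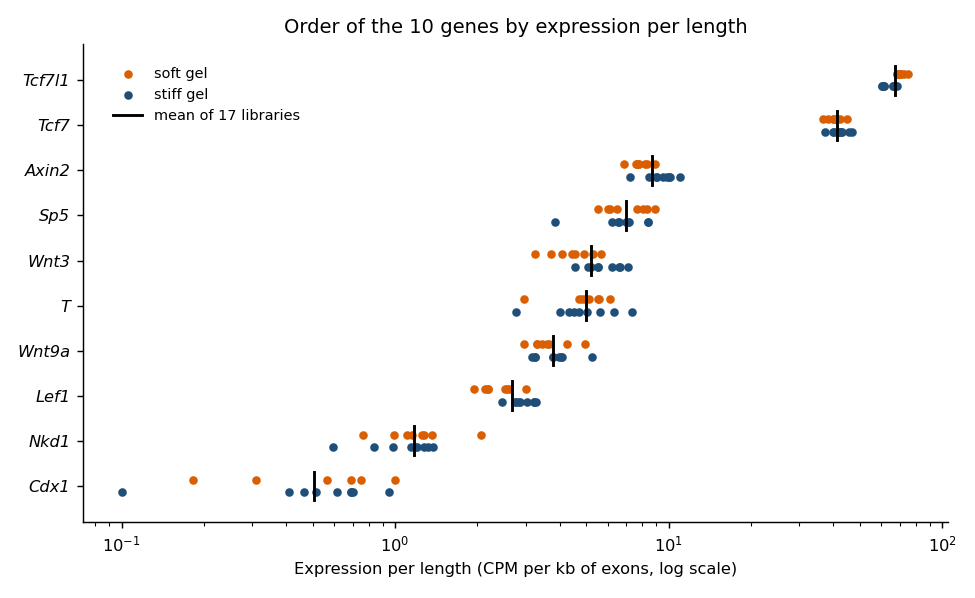
Expression per length of the 10 genes, as CPM per kb of annotated exons on a log axis, with points for single libraries on soft (orange) and stiff (blue) gels and black bars for the mean of 17 libraries. Tcf7l1 and Tcf7 lie at 67.3 and 41.4 CPM per kb, apart from the other genes, and 2 soft libraries in which Cdx1 had 0 counts are not drawn.

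Averaged over the 3 AHA concentrations, 4 of the 9 genes tested differed between soft and stiff gels: Wnt3, Lef1 and Axin2 were lower on soft gels and Tcf7l1 was higher. Across all genes tested, 8.64% were called in this comparison, 4.63% lower and 4.02% higher on soft gels. The 10 genes were chosen with earlier results of these data known, so setting their calls beside these shares is not a test of the set. A gene was called when its Benjamini-Hochberg adjusted p over all 13443 genes was under 0.05 in edgeR's quasi-likelihood test. The median log2 fold change of the 9 genes was -0.06, against 0.00 for all genes tested, and the median size of the change was 0.14 against 0.09. None of the 10 genes separated all soft from all stiff libraries, which 1.25% of the genes tested did. The changes were small, from 9.96% higher for Tcf7l1 to 21.7% lower for Wnt3. In these bulk libraries, fewer cells that express a gene cannot be told apart from less of its RNA per cell.

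Wnt3, a canonical ligand needed for primitive streak formation (chr11:103774150-103817957, plus strand), was lower on soft gels. On soft gels its libraries read 14.0, 15.1 and 11.4 CPM at 16 mM AHA, 9.98, 12.6 and 17.4 CPM at 48 mM and 13.6 and 16.4 CPM at 80 mM. On stiff gels they read 17.0, 21.9 and 19.1 CPM at 16 mM, 20.4, 16.0 and 14.0 CPM at 48 mM and 15.7, 20.2 and 16.9 CPM at 80 mM. At 16 mM AHA all 3 soft libraries lay below the 3 stiff libraries, whereas at 48 and 80 mM the groups overlapped. The averaged log2 fold change was -0.35 ± 0.11 (SE), with an adjusted p of 0.0184, and 7 of 8 soft libraries lay below the stiff median of 17.0 CPM. It rests on 63 to 106 counts per library. With the left-out library kept (13.7 CPM), the log2 fold change was -0.37 with an adjusted p of 0.00777. The call was lost without soft, 16 mM AHA replicate 3 (adjusted p = 0.0543), soft, 48 mM AHA replicate 1 (0.0745), soft, 80 mM AHA replicate 2 (0.0849) or stiff, 48 mM AHA replicate 1 (0.0664).

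Wnt9a, the other ligand of the set (chr11:59306928-59333552, plus strand), gave no detectable difference. It ranged from 9.83 to 16.5 CPM on soft gels (median 11.7) and from 10.52 to 17.5 CPM on stiff gels (median 12.6). Its averaged log2 fold change was -0.07, with a 95% interval from -0.30 to 0.16 and an adjusted p of 0.820. At 80 mM AHA the groups did not overlap, with 11.0 CPM in both soft libraries and 13.2 to 13.6 CPM on stiff gels, but the left-out soft library read 13.55 CPM (adjusted p = 0.724).

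Among the factors, Lef1, an activator that is itself a common Wnt target (chr3:131110471-131224356, plus strand), was lower on soft gels. Soft libraries read 22.5, 19.2 and 26.5 CPM at 16 mM AHA, 23.0, 17.0 and 19.2 CPM at 48 mM and 22.2 and 18.7 CPM at 80 mM. Stiff libraries read 25.1, 21.6 and 26.8 CPM at 16 mM, 28.7, 24.1 and 28.4 CPM at 48 mM and 28.4, 24.3 and 24.9 CPM at 80 mM. The stiff libraries lay above all soft ones at 48 and at 80 mM AHA, and the groups overlapped at 16 mM. The averaged log2 fold change was -0.30 ± 0.09 (SE), with an adjusted p of 0.0128. The left-out soft library was the lowest of all at 16.3 CPM, and with it the log2 fold change was -0.34 with an adjusted p of 0.00220. Without soft, 80 mM AHA replicate 3 the call was lost (-0.27, adjusted p = 0.0644).

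Tcf7l1, the main repressor of the family in mESCs (chr6:72626378-72789254, minus strand), was the only gene of the set called higher on soft gels. Soft libraries read 276, 268 and 278 CPM at 16 mM AHA, 296, 276 and 268 CPM at 48 mM and 286 and 268 CPM at 80 mM. Stiff libraries read 268, 259 and 265 CPM at 16 mM, 260, 237 and 264 CPM at 48 mM and 237, 241 and 240 CPM at 80 mM. The soft libraries lay above the stiff ones at each AHA concentration, by a wide gap at 80 mM and by a hair at 16 mM, where the lowest soft library was at 268.3 CPM and the highest stiff library at 268.1 CPM. Soft gels averaged 277 ± 9.82 CPM (SD, n = 8) against 252 ± 13.2 CPM (SD, n = 9), and the averaged log2 fold change was 0.14 ± 0.03 (SE) with an adjusted p of 0.000304. With 1000 to 1867 counts per library it was the best measured gene of the set, and the left-out soft library (290 CPM) also lay above every stiff library.

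Tcf7, which encodes TCF1, an activating factor (chr11:52252371-52283014, minus strand), ranged from 96.4 to 118 CPM on soft gels (median 106) and from 98.4 to 123 CPM on stiff gels (median 111). Its averaged log2 fold change was -0.06, with an adjusted p of 0.515 and a 95% interval from -0.14 to 0.03. The soft and stiff libraries overlapped over most of their range.

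Of the target genes, Axin2, a scaffold of the destruction complex that is widely used as a readout of Wnt signalling (chr11:108920349-108950783, plus strand), was lower on soft gels. Soft libraries read 42.1, 37.7 and 45.9 CPM at 16 mM AHA, 42.8, 42.5 and 45.0 CPM at 48 mM and 41.9 and 49.3 CPM at 80 mM. Stiff libraries read 49.8, 49.7 and 54.3 CPM at 16 mM, 60.5, 52.6 and 55.7 CPM at 48 mM and 46.7, 39.8 and 55.2 CPM at 80 mM. Soft and stiff libraries did not overlap at 16 or 48 mM AHA, whereas at 80 mM a stiff library was the lowest of the 5. All 8 soft libraries lay below the stiff median of 52.6 CPM. The averaged log2 fold change was -0.24 ± 0.06 (SE), with an adjusted p of 0.00364, and the call held in all 24 alternative fits, of which 17 each left out a library (adjusted p up to 0.0365).

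The other targets gave no call. Sp5, a zinc-finger factor induced directly by β-catenin (chr2:70474923-70477729, plus strand), ranged from 11.6 to 18.7 CPM on soft gels (median 14.9) and from 8.10 to 17.7 CPM on stiff gels (median 14.7). Its averaged log2 fold change was 0.07, with a 95% interval from -0.15 to 0.29 and an adjusted p of 0.807. Nkd1, an inhibitor that binds Dishevelled (chr8:88521354-88594884, plus strand), ranged from 3.48 to 9.43 CPM on soft gels (median 5.48) and from 2.70 to 6.27 CPM on stiff gels (median 5.41). Its log2 fold change was 0.22, with an interval from -0.13 to 0.57 (adjusted p = 0.537), and was 0.07 without soft, 80 mM AHA replicate 2. With 15 to 59 counts per library, Nkd1 was the least precise value among the genes of this set that were tested. T, the transcription factor brachyury of the primitive streak (chr17:8434423-8442496, plus strand), ranged from 6.88 to 14.2 CPM on soft gels (median 11.7) and from 6.39 to 17.0 CPM on stiff gels (median 10.9). Its log2 fold change was -0.01, with an interval from -0.26 to 0.24 and an adjusted p of 0.977, and 2 stiff libraries lay above and 1 below all soft ones.

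Cdx1, a homeobox gene of the posterior embryo, was barely detected, with 82 counts in all over the 17 libraries and at most 11 in a single library. Its mean was 0.763 ± 0.645 CPM for the 8 soft libraries and 0.998 ± 0.417 CPM for the 9 stiff libraries (SD). In 2 soft libraries it had 0 counts, which allows up to 0.566 and 0.538 CPM (3 counts, counting error only). A 2-sided exact permutation test of the means gave p = 0.375, so that no difference was detectable at this depth.

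**Figure D2:**
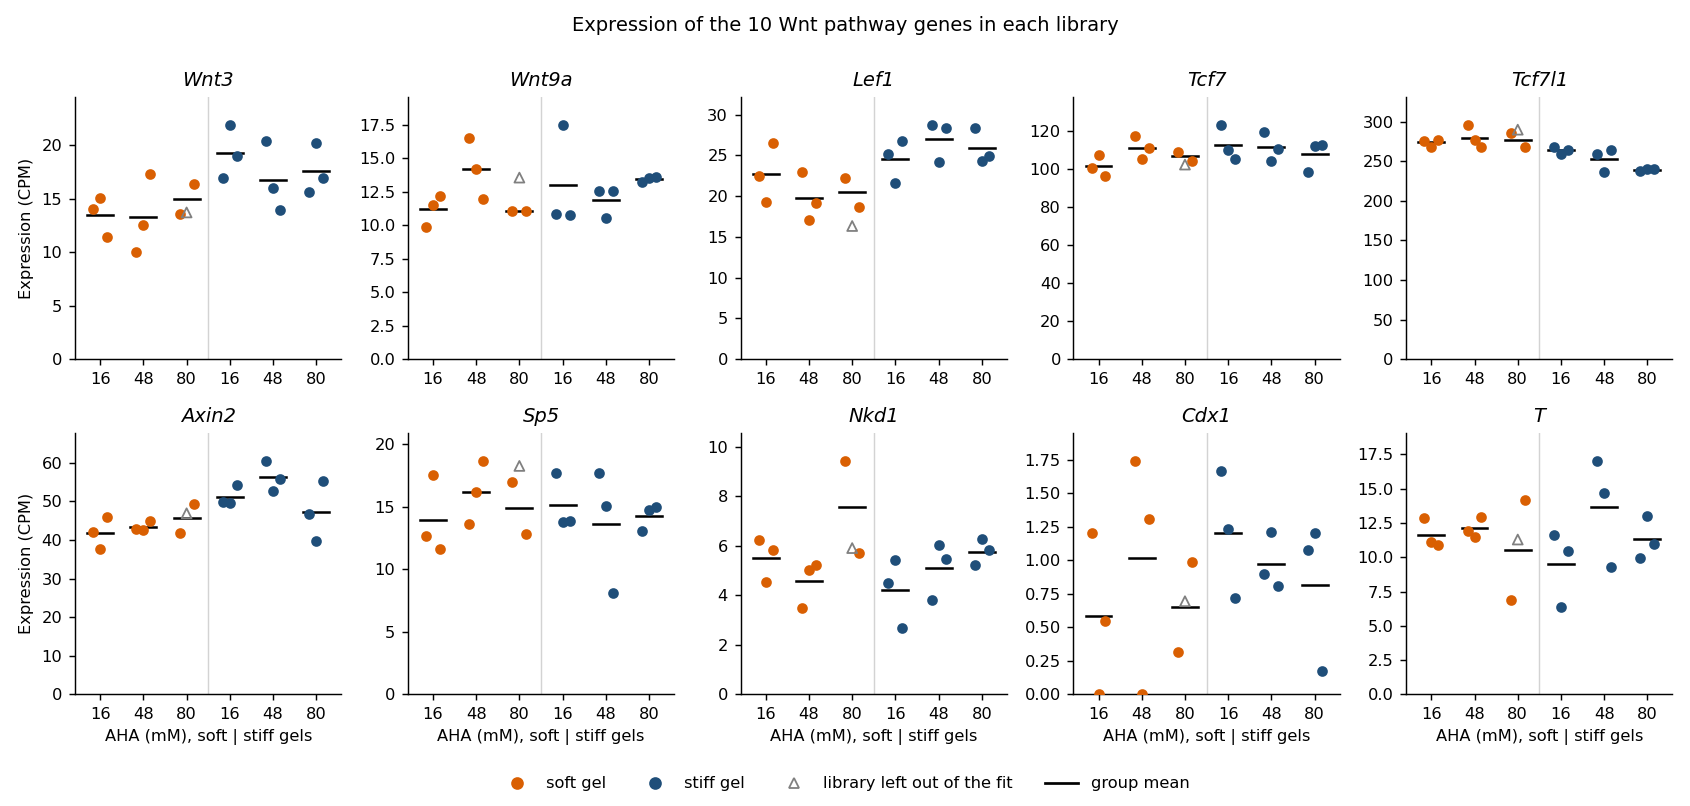
Expression in CPM (linear axes from 0) of the 10 genes in each library, for soft (orange) and stiff (blue) gels at 16, 48 and 80 mM AHA, with black bars for group means and a grey triangle for the soft library left out of the fit. Wnt3, Lef1 and Axin2 sit higher on stiff gels and Tcf7l1 lower, with group means for Tcf7l1 from 274 to 280 CPM on soft and from 239 to 264 CPM on stiff gels.

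Genes on the opposite strand could alter the counts of 3 of the called genes if reads were counted without regard to strand, which the sources used here did not state. Lef1 shares 13.7% of its exon bases with Gm43352, Tcf7l1 4.56% with Gm15401 and Axin2 3.80% with Gm11670. These partners had at most 3, 2 and 5 counts in a library, which does not show how many reads fell in the shared bases. Wnt3 had no such partner.

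At single AHA concentrations few of the differences passed the test. At 16 mM AHA 0 of the 9 genes were called, against 3.02% of all genes tested, with edgeR as with DESeq2, and 3 had an unadjusted p under 0.05. These were Wnt3 (-0.50 ± 0.18, adjusted p = 0.118), Axin2 (-0.29 ± 0.11, 0.132) and Tcf7 (-0.16 ± 0.07, 0.295), given as log2 fold change ± SE. At 48 mM Axin2 was called (-0.37 ± 0.10, adjusted p = 0.0208), where 2.87% of all genes were. Lef1 had the greatest log2 fold change at 48 mM but missed the threshold (-0.45 ± 0.14, adjusted p = 0.0687). Without soft, 48 mM AHA replicate 1, Lef1 was called (-0.57, adjusted p = 0.0383) and Axin2 was not (0.0914). The Axin2 call was also lost without soft, 48 mM AHA replicate 2 (adjusted p = 0.0851) or stiff, 48 mM AHA replicate 1 (0.142). At 80 mM Tcf7l1 was called (0.21 ± 0.05, adjusted p = 0.0268), where 0.885% of all genes were. That call was lost when any of the 5 libraries at 80 mM AHA was left out (adjusted p from 0.0547 to 0.443). The count of all genes called at 80 mM, 119, itself moved with the libraries used, to 42 without soft, 80 mM AHA replicate 3, 51 without stiff, 80 mM AHA replicate 3 and 342 with all 18 libraries. Libraries on soft and stiff gels did not overlap for 3 of the 9 genes at each concentration: Tcf7l1 throughout, with Wnt3 and Axin2 at 16 mM, Lef1 and Axin2 at 48 mM and Wnt9a and Lef1 at 80 mM. The shares among all genes tested were 18.3% at 16 mM, 18.0% at 48 mM and 24.7% at 80 mM.

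**Figure D3:**
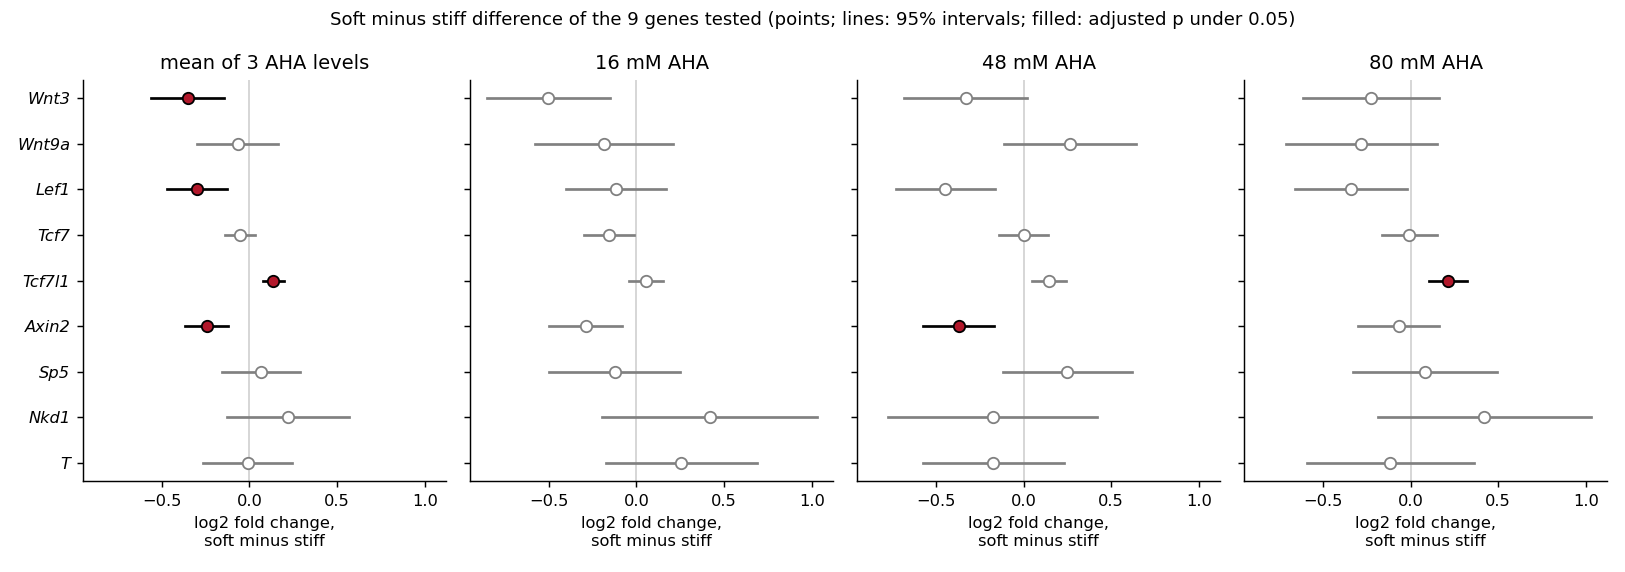
Log2 fold change on soft minus stiff gels of the 9 genes tested, averaged over AHA and at 16, 48 and 80 mM AHA, with points for the estimate, lines for 95% intervals and filled points for an adjusted p under 0.05. Wnt3, Lef1, Axin2 and Tcf7l1 are filled in the average, Axin2 (-0.37) at 48 mM and Tcf7l1 (0.21) at 80 mM.

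The size of the soft minus stiff difference was not shown to depend on tethering for any of these genes. In the F test that the 3 differences were equal, 0 of the 9 genes were called, none had an unadjusted p under 0.05, and the adjusted p ranged from 0.810 (Tcf7l1) to 0.9749 (Wnt3). Across all genes 0.0298% were called in that test. DESeq2 likewise called 0 of the 9.

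AHA concentration itself gave no call in the set on either gel. On soft gels 0 of the 9 genes were called between 48 and 16 mM, between 80 and 16 mM or between 80 and 48 mM, where 0%, 0.245% and 0.0669% of all genes were. On stiff gels it was 0 of the 9 in the same 3 comparisons, where 0%, 0.00744% and 0.00744% of all genes were called. DESeq2 called none of the 9 in these comparisons. At an unadjusted p under 0.05, 1 gene stood out on soft gels, Nkd1, which was 0.74 ± 0.31 higher on the log2 scale at 80 than at 48 mM (adjusted p = 0.593). That value rests on soft, 80 mM AHA replicate 2 at 9.43 CPM, since replicate 3 read 5.71 CPM and the left-out replicate 1 read 5.91 CPM, and without replicate 2 it was 0.32 ± 0.42. On stiff gels 1 gene did so in each comparison. T was 0.49 ± 0.21 higher at 48 than at 16 mM (adjusted p = 0.936), Tcf7l1 was -0.14 ± 0.05 at 80 against 16 mM (0.540) and Axin2 was -0.24 ± 0.10 at 80 against 48 mM (0.816). Group means of T on stiff gels were 9.49 ± 2.75, 13.7 ± 3.96 and 11.3 ± 1.55 CPM at 16, 48 and 80 mM AHA (SD, n = 3), so that the spread between libraries was as wide as the step. Group means of Tcf7l1 on stiff gels were 264 ± 4.50, 253 ± 14.7 and 239 ± 1.90 CPM, against 274 ± 4.91, 280 ± 14.2 and 277 ± 12.9 CPM on soft gels (n = 2 at 80 mM).

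Cell type markers moved with stiffness beside these genes. Of 6 mESC markers, 5 rose on soft gels, against 4.02% of all genes tested. The summed level of the 6 ranged from 1595 to 1760 CPM on soft and from 1427 to 1534 CPM on stiff gels, without overlap. Pou5f1 was not called (0.04, adjusted p = 0.459). Nanog, a naive pluripotency factor, was 0.38 ± 0.04 higher on the log2 scale (adjusted p = 2.83e-14) and Esrrb, another, 0.35 ± 0.03 (1.99e-20). Of 5 fibroblast markers 1 fell on soft gels, against 4.63% of all genes tested. It was the collagen gene Col1a1 (-0.49 ± 0.08, adjusted p = 0.00283). Pdgfrb, another of the 5, had an unadjusted p of 0.0131 in the average (-0.45 ± 0.18, adjusted p = 0.107) and was called at 80 mM AHA (-1.35 ± 0.34, 0.0234). The list summed to 118 to 198 CPM on soft and 170 to 241 CPM on stiff gels. None of the 6 primitive endoderm or 2 neuroectoderm markers was called by edgeR or DESeq2 (0 and 1, Pax6, at an unadjusted p under 0.05), with sums of 35.6 to 50.6 against 36.5 to 47.1 CPM and of 15.3 to 22.4 against 10.6 to 18.7 CPM. No marker of these 4 lists was at 0 in a library. Their part in the Wnt gene differences was not tested.

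The rest of the pathway was read from 9 lists of 102 further genes, of which 86 were tested. Averaged over AHA, 15 of the 86 (17.4%) were called, 7 lower and 8 higher on soft gels, and the median log2 fold change of the 86 was 0.02. Across all genes tested 8.64% were called, 4.63% lower and 4.02% higher. The lists were chosen with earlier results of these data known, so setting their calls beside these shares is not a test of the pathway. The 7 lower calls were 2 ligands, 2 receptors and 3 targets, and the 8 higher calls were 1 receptor, 1 secreted antagonist, 4 cytoplasmic genes and 2 nuclear partners.

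Among the other Wnt ligands, 12 of 17 were tested, 2 fell and none rose, against 4.63% of all genes called lower. The median log2 fold change was -0.25, and 9 of the 12 estimates were below 0. At an unadjusted p under 0.05 there were 5, of which Wnt8a lay in the other direction (0.38 ± 0.17, adjusted p = 0.168). Wnt4 averaged 13.1 ± 1.81 CPM (SD) over the 8 soft and 18.7 ± 1.87 CPM over the 9 stiff libraries, and 7 of 8 soft libraries lay below every stiff one (-0.49 ± 0.10, adjusted p = 0.000218). Wnt7b (67.8 ± 5.47 against 75.4 ± 5.77 CPM) was also lower on soft gels (-0.17 ± 0.05, adjusted p = 0.0150) and was called again at 80 mM AHA (-0.36 ± 0.10, 0.0391). Wnt7a was called at 16 mM AHA alone (-1.26 ± 0.36, adjusted p = 0.0221), and its averaged value was -0.31 (0.396). Neither gene of Wnt secretion, Porcn or Wls, was called by edgeR or DESeq2, and 0 had an unadjusted p under 0.05.

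All 16 receptors were tested and 3 were called, against 8.64% of all genes tested. Fzd5, a Frizzled receptor, rose on soft gels from 57.1 ± 6.54 to 67.6 ± 4.34 CPM (0.24 ± 0.05, adjusted p = 0.000779). Fzd2, another Frizzled, was lower at 30.4 ± 4.53 against 35.8 ± 3.52 CPM (-0.23 ± 0.07, 0.0252) and was called again at 48 mM AHA (-0.57 ± 0.12, 0.000723). Ptk7, a co-receptor linked to planar cell polarity, was also lower (-0.10 ± 0.03, 0.0182). None of the 7 genes tested of the R-spondin axis, which amplifies Wnt signals at the receptor, was called by edgeR or DESeq2, and 0 had an unadjusted p under 0.05. Of the secreted antagonists 8 of 16 were tested and 1 was called, Sfrp1, which binds Wnt proteins outside the cell. Sfrp1 read 33.0 ± 1.95 CPM on soft and 25.2 ± 1.51 CPM on stiff gels (0.40 ± 0.08, adjusted p = 4.05e-05). Its libraries did not overlap, as for 1.25% of all genes tested. At an unadjusted p under 0.05, Sfrp2 lay in the other direction (-0.21 ± 0.10, adjusted p = 0.212), and 5 of the 8 estimates were below 0.

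In the cytoplasmic relay and among the nuclear partners every call was higher on soft gels, the direction in which 4.02% of all genes tested were called. Of 15 relay genes 4 rose on soft gels and none fell: Dvl2, a Dishevelled protein (0.18 ± 0.04, adjusted p = 0.00220), Tnks, a tankyrase that promotes Axin turnover (0.12 ± 0.04, 0.0184), Apc of the destruction complex (0.08 ± 0.03, 0.0494, but not called in 18 of 24 alternative fits, DESeq2 among them) and Ctnnb1, which encodes β-catenin (0.08 ± 0.02, 0.0187). The mRNA of Ctnnb1 thus stood at 636 ± 12.3 CPM on soft and 603 ± 14.5 CPM on stiff gels, a rise of 5.57%. Of 9 nuclear partners 2 rose, Tle1 (0.19 ± 0.05, adjusted p = 0.0146) and Tle3 (0.12 ± 0.03, 0.00481), both Groucho-type co-repressors that TCF factors recruit. Of the called pathway genes other than targets, Dvl2 shares 18.3%, Fzd5 17.8%, Ctnnb1 14.6%, Wnt7b 6.61%, Tnks 4.27% and Tle1 2.84% of exon bases with a gene on the opposite strand.

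Of the 8 other targets, all tested, 3 fell on soft gels and none rose, against 4.63% of all genes called lower. Ccnd1, which encodes cyclin D1, separated all soft from all stiff libraries at 97.9 to 120 against 127 to 142 CPM (-0.28 ± 0.04, adjusted p = 1.71e-08). Of all genes tested, 1.25% separated them. Myc, a growth-promoting factor, averaged 107 ± 6.27 against 125 ± 7.15 CPM (-0.22 ± 0.04, 2.34e-05), and Cd44, an adhesion receptor, 16.4 ± 2.03 against 20.3 ± 2.14 CPM (-0.31 ± 0.10, 0.0249). These genes respond to many other signals as well. Ccnd1 also shares 23.4% of its exon bases with an opposite-strand gene. None of the 9 tested primitive streak genes was called by edgeR or DESeq2, and 1, Eomes, had an unadjusted p under 0.05 (-0.27 ± 0.12, adjusted p = 0.190). Their list of 10, which leaves out T, was low on both gels, with sums of 21.9 to 29.1 CPM on soft and 22.4 to 28.5 CPM on stiff gels.

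Several of these pathway calls rested on single libraries, while those of Wnt4, Fzd5, Sfrp1, Tle3, Ccnd1 and Myc in the average held in all 24 alternative fits. Apc lost its call in 18 of the 24 (adjusted p up to 0.279), among them DESeq2 (0.0682) and 13 of the 17 fits without a library. Ctnnb1 lost it in 6, without soft, 48 mM AHA replicate 2, soft, 80 mM AHA replicate 2 or 3, stiff, 16 mM AHA replicate 2, stiff, 48 mM AHA replicate 1 or stiff, 80 mM AHA replicate 2 (adjusted p from 0.0504 to 0.0738). Tle1 lost it with all 18 libraries (0.0579), with either of the other soft, 80 mM AHA libraries left out in place of replicate 1 (0.242, with a log2 fold change of 0.11 in place of 0.19, for replicate 2 and 0.0635 for replicate 3), and without soft, 48 mM AHA replicate 2 (0.0551), soft, 80 mM AHA replicate 2 (0.205) or stiff, 16 mM AHA replicate 1 (0.0569). Without soft, 80 mM AHA replicate 2 the calls of Tnks (0.122), Ptk7 (0.0949) and Cd44 (0.0887) were lost too, as were those of Ptk7 (0.0676) and Cd44 (0.0750) with that library left out in place of replicate 1, and without soft, 80 mM AHA replicate 3 those of Dvl2 (0.140, with a log2 fold change of 0.11 in place of 0.18), Fzd2 (0.0663) and Wnt7b (0.0698). Tnks also lost its call without stiff, 16 mM AHA replicate 1 (0.100) or stiff, 80 mM AHA replicate 3 (0.0631), Ptk7 without stiff, 16 mM AHA replicate 3 (0.0637) and Wnt7b without stiff, 48 mM AHA replicate 1 (0.0666). Cd44 lost it without soft, 16 mM AHA replicate 1, stiff, 48 mM AHA replicate 2 or stiff, 80 mM AHA replicate 3 (0.0514 to 0.0834), and Fzd2 without soft, 16 mM AHA replicate 2, soft, 48 mM AHA replicate 1, stiff, 48 mM AHA replicate 2 or stiff, 80 mM AHA replicate 3 (0.0503 to 0.0975). Of the calls at single AHA concentrations given for these genes, that of Fzd2 at 48 mM held in all alternatives. Wnt7a at 16 mM lost its call without soft, 16 mM AHA replicate 2 (0.134) or 3 (0.225) or stiff, 16 mM AHA replicate 1 (0.167). Wnt7b at 80 mM lost it with DESeq2 (0.0564), in a fit of only its 2 groups (0.0701), and without soft, 80 mM AHA replicate 2 (0.0649) or 3 (0.377) or stiff, 80 mM AHA replicate 1 (0.0539) or 3 (0.228).

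**Figure D4:**
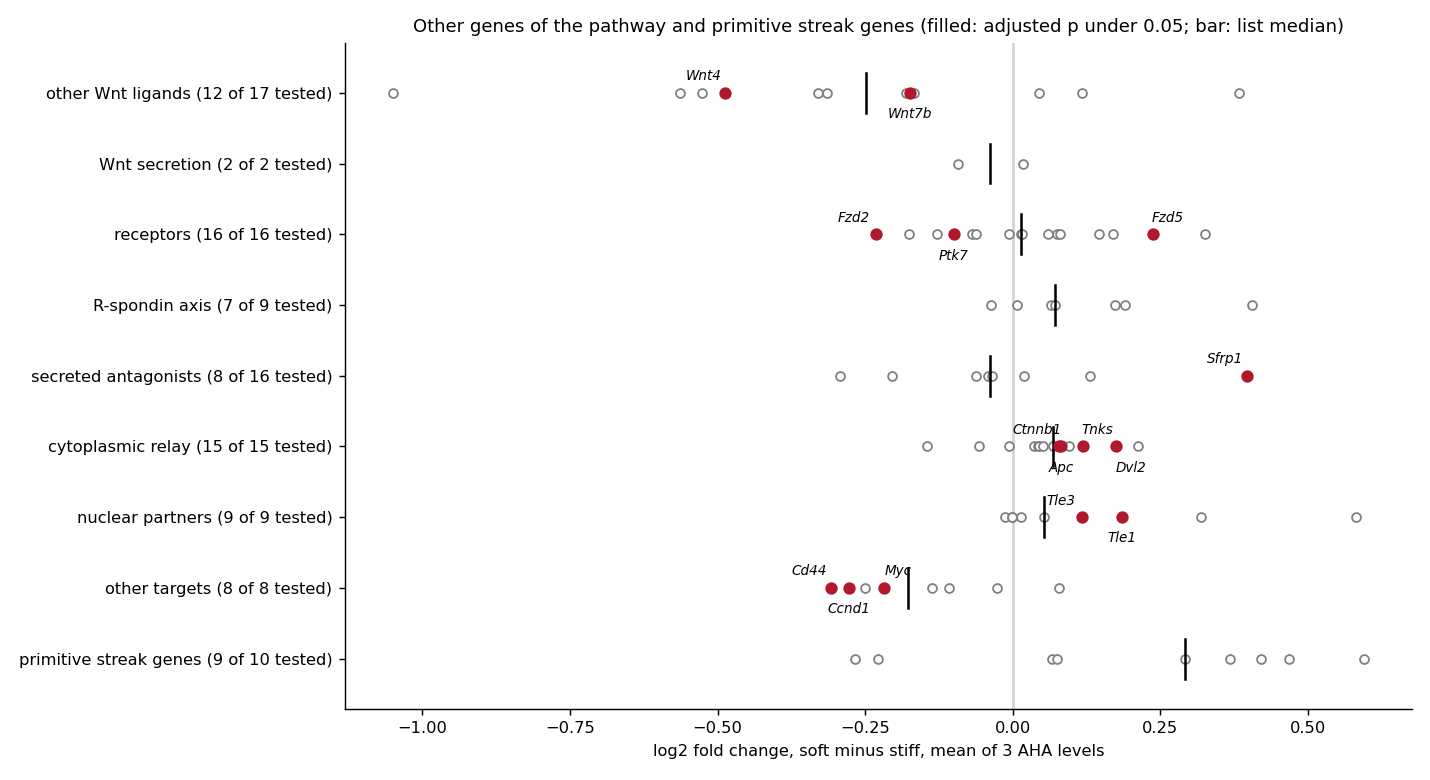
Log2 fold change on soft minus stiff gels, averaged over AHA, of the 86 tested genes of 9 lists, with a point per gene, filled and named where the adjusted p was under 0.05, and a bar at the list median. The 3 called targets and 2 called ligands lie to the left of 0 and the 4 relay genes to the right, while the medians range from -0.25 for ligands to 0.29 for primitive streak genes, of which none was called.

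Likeness between the genes was described for the 9 genes tested. Over their 36 pairs, Pearson's r of log2 CPM across 17 libraries ranged from -0.61 (Wnt3 with Tcf7l1) to 0.57 (Lef1 with Axin2), with a median of -0.03. These libraries share the soft and stiff groups, which can set such values. After subtraction of each group's mean, the pair Wnt3 with Tcf7l1 stood at -0.52 and Lef1 with Axin2 at 0.30. The pair Lef1 with Tcf7l1 went from -0.36 to 0.69, the highest of the 36 after subtraction.

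The genes most like each member over the 17 libraries were listed by the same r, as a description. They are the highest among 13443 genes, and how high r goes for unrelated genes was not tested. Lef1 was nearest to Tmem123 (0.88), Prdx6 (0.86) and Spop (0.85), and Wnt3 to 9930012K11Rik (0.87) and Fkbp1a (0.86). Tcf7l1 was nearest to Sall1 (0.86), Scpep1 (0.85) and Triml1 (0.83), and Axin2 to Nhsl1 (0.84), Tmem109 (0.83) and Dusp9 (0.81). After subtraction of each group's mean, r was 0.46 for Tcf7l1 with Sall1, 0.66 for Axin2 with Nhsl1 and 0.75 for Wnt3 with 9930012K11Rik. For Lef1 it was 0.76 with Tmem123 and 0.90 with Prdx6. T was nearest to Ino80b (0.83), Prr5l (0.83) and Tfb1m (0.73), and Wnt9a to Edf1 (0.83), D10Wsu102e (0.80) and Eea1 (0.75). Nkd1 was nearest to Gas1 (0.81), Emc2 (0.78) and Fgf1 (0.77), Tcf7 to Ptpn18 (0.79), Cacng6 (0.74) and Lhpp (0.72), and Sp5 to Mapk7 (0.78), Tecr (0.75) and Tdp2 (0.75). Some of these were low, with means of 2.01 CPM for Gas1, 3.07 for Fgf1, 2.77 for Ptpn18, 2.995 for Cacng6 and 4.65 for Lhpp. None of these 9 genes was among the 3 nearest of another.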

How the data were processed

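RNA was measured in 18 libraries, 3 in each of 6 groups taken from the labels. Replicate numbers follow sample order and only name libraries. Per the labels and the study's methods, the authors trimmed reads with Trim Galore 0.4.4, aligned them with GSNAP to mm10 and counted reads in Ensembl genes with HTSeq. Deposited values are raw counts, not normalised. HTSeq's strand setting was not given in the sources used here. Summary lines (61.5 to 64.0% of each column) and spike-ins entered neither library sizes nor tests.

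Genes were named with GENCODE M21 (45229 of 46078 identifiers). The 21596 protein-coding genes were filtered with filterByExpr (minimum count 10), scaled with TMM and fitted with edgeR 4.0.16 in R 4.3.3 as a robust quasi-likelihood model with 1 coefficient per group. P-values were adjusted by Benjamini-Hochberg over all 13443 genes within a comparison. Standard errors came from the F statistic. The soft, 80 mM AHA library with the highest ERCC share was left out, after the study's practice. The authors tested pairs of groups with DESeq2, and DESeq2 1.42.0 was an alternative here, beside other scalings, filters and choices of libraries. The fit was also run on simulated counts drawn with the same spread for every gene, and no result here rests on that run. Cdx1 was compared with SciPy 1.17.1. Named genes were the 10 genes, pathway genes called in any comparison, and for each gene of at least 5 CPM the 3 most correlated genes, of which 1 is not reported here. The 10 genes and the lists were chosen with earlier results of these data known. The depth of 5850621 to 9290261 counts per library limits precision for genes near or under 10 CPM. Coordinates of genes are those of GRCm38.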

Additional observations from a re-analysis of the deposited data

Results flagged for a closer look

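Within the 8 soft or the 9 stiff libraries, pooled over AHA, a library was marked when its gap to the nearest library was too large a share of the whole range (Dixon's 95% value). Of the 20 sets examined (10 genes on 2 gels) 4 held such a library, and chance alone marks about 1 in 20 sets. Wnt9a stood at 17.5 CPM in stiff, 16 mM AHA replicate 2, with the next stiff library at 13.6 CPM. Sp5 stood at 8.10 CPM in stiff, 48 mM AHA replicate 3, with the next at 13.0 CPM. In soft, 80 mM AHA replicate 2, Nkd1 stood at 9.43 CPM, with the next soft library at 6.22 CPM, and T at 6.88 CPM, with the next at 10.9 CPM. None of the 4 genes Wnt3, Lef1, Axin2 and Tcf7l1 had such a library.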

How the results depend on the processing

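Beside the main fit, 8 other settings and 17 fits without a single library each were run. No paired analysis was possible because the labels give no replicate numbers, and those used here only name the libraries of a group. Counts of called genes among the 10 moved by no more than 1.5 times in the averaged comparison (3 or 4), at 16 mM AHA, in the 6 AHA comparisons and in the interaction (0 throughout). The averaged calls of Axin2 and Tcf7l1 held in all 24 alternatives, that of Lef1 in 23 and that of Wnt3 in 20. Each loss came in a fit without a single library, and the other fits of that kind kept the call. At 48 mM AHA, leaving out a library gave 0 to 1 called genes, with 0 without soft, 48 mM AHA replicate 2 or stiff, 48 mM AHA replicate 1, and without soft, 48 mM AHA replicate 1 the called gene was Lef1 in place of Axin2. At 80 mM AHA leaving out a library gave 0 to 1, a fit of only the 2 groups compared gave 0, and leaving out soft, 80 mM AHA replicate 2 in place of replicate 1 gave 2 (Lef1 and Tcf7l1). The cause was not tested. The count of other pathway genes called ranged from 9 (without soft, 80 mM AHA replicate 2) to 15. Values near 0 changed sign: T gave 0.0026 with all 18 libraries, 0.088 with soft, 80 mM AHA replicate 2 left out in place of replicate 1 and -0.21 to 0.13 without single libraries. Likewise, without single libraries, Wnt9a ranged from -0.11 to 0.0079 (above 0 only without stiff, 16 mM AHA replicate 2) and Sp5 from -0.024 to 0.13 (below 0 without soft, 80 mM AHA replicate 2 or stiff, 48 mM AHA replicate 3). Nkd1 ranged from 0.072 to 0.32 without single libraries, lowest without soft, 80 mM AHA replicate 2. None of these was called. Over all genes, the count called was 119 at 80 mM AHA, with 42 and 51 without soft or stiff, 80 mM AHA replicate 3, 79 with only the 2 groups, 342 with all 18 libraries and 384 or 257 with soft, 80 mM AHA replicate 2 or 3 left out in place of replicate 1. Between 80 and 16 mM on soft gels it was 33, with 2 without soft, 80 mM AHA replicate 2, 8 without soft, 16 mM AHA replicate 1 and 69 without soft, 80 mM AHA replicate 3. At 16 mM it was 406, with 245 without soft, 16 mM AHA replicate 1, and at 48 mM 386, with 257 and 222 without soft, 48 mM AHA replicates 1 and 2. In the other AHA comparisons and the interaction it stayed between 0 and 16. Depth limits Cdx1 and Nkd1 most, with at most 11 and 59 counts per library.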
